A study of Mus musculus with 35 samples.

Results

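Oxidative phosphorylation couples the oxidation of nutrients to ATP synthesis in the inner mitochondrial membrane. Complexes I (NADH dehydrogenase), II (succinate dehydrogenase), III (cytochrome bc1) and IV (cytochrome c oxidase) pass electrons to oxygen and, except for complex II, pump protons, and complex V (ATP synthase) uses the proton gradient to make ATP. All subunits of complex II and most subunits of the others are encoded in the nucleus, while a few core subunits of complexes I, III, IV and V are encoded by mitochondrial DNA. Dividing T cells are known for building up mitochondria as well as glycolysis.

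The genes described here are the protein-coding mouse genes whose symbols begin with Ndufa, Ndufb, Ndufc, Ndufs, Ndufv, Uqcr, Cox4 to Cox8 or Atp5, or are Sdhb, Sdhc or Sdhd. These are 92 of the 48709 genes in the count tables. They comprise 44 genes of complex I, 3 of complex II, 8 of complex III, 20 of complex IV and 17 of complex V. The symbol rule also brought in 8 complex I assembly factors (symbols beginning with Ndufaf), the supercomplex factor Cox7a2l and the coupling factor Atp5s, which are not subunits in the strict sense, and it missed the subunits Sdha and Cyc1. Ndufa4 is counted with complex IV, to which its protein belongs in spite of its name.

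The libraries came from OT-I cytotoxic T lymphocytes (CTLs), CD8+ T cells of mice that carry a transgenic T-cell receptor for ovalbumin. Splenic cells had been activated through CD3 and CD28 and then grown in IL-2 for days, so every group had been exposed to IL-2 before the experiment. The 7 groups of 5 replicates were the starting cells (0 h) and, after 24 h, the 6 combinations of 3 pH values (7.4, 7 and 6.6) with the absence or presence of IL-2 at 200 IU/mL. Below, + IL-2 marks the groups that received it. Dead cells were removed on Ficoll before RNA extraction, and nothing in the labels says whether a replicate number marks one mouse, so the p-values measure the spread between these cultures.

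Between 16721319 and 34033340 reads per library were counted on genes. Of the CD8 T-cell markers, Cd8a stood at 673.5 to 1596 CPM (counts on the gene per 1000000 counts of the TMM-scaled library) over the 35 libraries, Cd4 at 0 to 2.48 CPM, and the B-cell, myeloid and erythroid markers at 0 to 3.29 CPM each. The effector genes Gzmb and Prf1 of the CD8 list ranged from 36.7 to 9006 and from 11.1 to 685.4 CPM, and the summed CD8 list was at 8857 to 11470 CPM in the pH 7.4 + IL-2 group and at 2525 to 3672 CPM at pH 6.6 with IL-2. The NK-cell marker Klrb1c stood at 8.27 to 94.9 CPM while Ncr1 stayed at or under 0.0694 CPM. The NK list summed to 43.0 to 45.8 CPM in the pH 7.4 + IL-2 group and to 19.3 to 33.2 CPM at pH 6.6 with IL-2, and its part in the results was not tested. At 0 h, replicate 5 stood apart with the highest summed level of the members, and the comparisons with 0 h are given with and without it.

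Of the 92 members, 87 were expressed highly enough to be tested among 13819 genes. The 5 that were not tested were the tissue-restricted isoforms Cox4i2, Cox7b2, Cox8b and Cox8c and the paralog Ndufa4l2. No read was counted on Cox7b2, Cox8b or Cox8c in any library, and Cox4i2 and Ndufa4l2 had at most 19 and 3 reads. Reads that align to several places were not counted, which lowers genes with near-identical copies. Fewer than 80% of the 50-base windows of Ndufaf2, Atp5o, Atp5g2, Ndufb6, Ndufa13, Uqcrb, Cox7c and Ndufs5 occur in that gene alone, and their levels are uncertain.

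To show the sequences at which these genes start, RefSeq promoter windows of 250 bases before and 50 bases after each start (build GRCm38.p6) were searched on both strands for 4 short motifs. All 92 members matched a RefSeq gene, and 75 had a window. The core of the NRF1 site, GCATGCGC, lay in 12 of these 75 (16%) against 3.94% of 17492 protein-coding genes. The GABP/ETS core CCGGAAG lay in 18 (24.0% against 12.9%), the YY1 core AAGATGGC in 11 (14.7% against 3.57%) and the E-box CACGTG, the letters that c-Myc and Max bind, in 6 (8.0% against 8.91%). NRF1, GABP and YY1 are known as activators of respiratory chain genes. The genes at large include genes not expressed in these cells, and shares among expressed genes alone were not computed. A match is a string of letters and not a measured binding site.

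Upstream stretches are printed for 3 members that rose at pH 6.6 with IL-2 (Ndufa6, Uqcrh and Cox7a2l) and for 5 that fell (Ndufaf4, Uqcr11, Cox6a1, Atp5k and Atp5g1), so that both kinds can be read side by side. They were chosen after their values were seen, and not as the largest changes. Ndufa12 and Ndufa4, the largest falls of complexes I and IV, and Atp5s, which rose, are not shown. All 5 that fell hold a marked motif, whereas each motif lay in 8.0 to 24.0% of the 75 members with a window. The printed stretches therefore do not stand for the members at large. Each stretch reads 5′ to 3′ on the gene's strand and is cut where annotated exons begin, except that a match crossing that edge was kept whole. Capitals mark the NRF1 core in Ndufa6, Ndufaf4, Cox6a1 and Atp5k, where the palindrome is matched on both strands in the last 3, the GABP/ETS core in Uqcrh and Uqcr11, and the E-box in Atp5g1. The windows hold further matches outside the printed stretches, given by position relative to the start. These are the GABP/ETS core in Cox6a1 (-16) and Atp5k (13), and the NRF1 core in Uqcr11 (-4) and Ndufaf4 (2). The Cox7a2l stretch holds none of the 4 motifs. It precedes a RefSeq start that lies inside the annotated gene, whose outer end on this strand is at 83517330. It is therefore not the sequence before that outer end.
Ndufa6, chr15:82354323-82354471, minus strand: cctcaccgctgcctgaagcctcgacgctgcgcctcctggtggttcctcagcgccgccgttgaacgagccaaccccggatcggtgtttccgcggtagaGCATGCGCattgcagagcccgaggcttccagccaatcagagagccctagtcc
Uqcrh, chr4:116075072-116075250, minus strand: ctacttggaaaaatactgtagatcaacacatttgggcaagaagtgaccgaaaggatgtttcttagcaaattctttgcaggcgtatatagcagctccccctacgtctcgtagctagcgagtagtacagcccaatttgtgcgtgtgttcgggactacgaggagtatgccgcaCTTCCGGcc
Cox7a2l, chr17:83514334-83514513, minus strand: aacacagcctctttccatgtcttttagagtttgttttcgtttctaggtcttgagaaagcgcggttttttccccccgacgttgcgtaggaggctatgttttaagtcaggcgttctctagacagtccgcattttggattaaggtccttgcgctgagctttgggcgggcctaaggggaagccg
Ndufaf4, chr4:24897903-24898082, plus strand: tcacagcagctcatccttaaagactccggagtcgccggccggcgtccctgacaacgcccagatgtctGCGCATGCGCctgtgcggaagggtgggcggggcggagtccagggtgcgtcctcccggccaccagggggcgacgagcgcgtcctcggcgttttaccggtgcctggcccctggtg
Uqcr11, chr10:80406831-80407001, minus strand: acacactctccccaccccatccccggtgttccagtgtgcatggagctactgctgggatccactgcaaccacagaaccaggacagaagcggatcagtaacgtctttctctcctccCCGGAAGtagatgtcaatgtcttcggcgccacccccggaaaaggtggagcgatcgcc
Cox6a1, chr5:115348982-115349129, minus strand: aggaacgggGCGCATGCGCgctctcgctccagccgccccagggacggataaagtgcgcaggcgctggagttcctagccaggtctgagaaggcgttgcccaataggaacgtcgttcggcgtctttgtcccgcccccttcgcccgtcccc
Atp5k, chr5:108434440-108434579, minus strand: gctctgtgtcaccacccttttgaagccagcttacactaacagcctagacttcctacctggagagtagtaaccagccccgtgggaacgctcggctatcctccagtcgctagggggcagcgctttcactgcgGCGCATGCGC
Atp5g1, chr11:96075670-96075811, minus strand: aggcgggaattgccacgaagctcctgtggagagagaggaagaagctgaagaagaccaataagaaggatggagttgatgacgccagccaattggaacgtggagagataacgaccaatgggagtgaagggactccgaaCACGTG

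The summed level of the 92 members was highest at pH 7.4 in the presence of IL-2 and lowest at pH 7.4 and pH 7 in its absence. As a share of all counts on genes, the members took 0.96, 0.927, 0.974, 1.01 and 1.13% in the 5 libraries of pH 7.4 + IL-2 and 0.706, 0.676, 0.683, 0.74 and 0.756% in those of pH 6.6 + IL-2. These 2 groups did not overlap, and each library at pH 6.6 lay below each library at pH 7.4. At pH 7 with IL-2 the share was 0.89% ± 0.036 (SD, n = 5), between the other two. Without IL-2 it was 0.586% ± 0.0375 at pH 7.4, 0.584% ± 0.0274 at pH 7 and 0.683% ± 0.0435 at pH 6.6 (SD, n = 5 each), so that there the acidic group was the higher one. At 0 h it was 0.892% ± 0.154 (SD, n = 5), with 0.906, 0.793, 0.804, 0.803 and 1.16% in the single libraries, of which replicate 5 was far above the other 4. These shares are relative to the RNA in each library, and less of these mRNAs per cell cannot be told apart from fewer cells that carry them.

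The mitochondrially encoded mRNAs followed another order. Of these 13 mRNAs, mt-Nd3, mt-Nd4l, mt-Co2, mt-Co3, mt-Atp6 and mt-Atp8 had at most 0.129 CPM in any library although cells use them all, so that the sum rests on the other 7. The sum took 1.64% ± 0.36 of the counts in the pH 7.4 + IL-2 group and 1.01% ± 0.0941 at pH 6.6 with IL-2 (SD, n = 5 each). The complex IV core subunit mt-Co1 alone had 7585 ± 1355 and 7253 ± 1147 CPM in these groups (SD, n = 5 each). Without IL-2 the sum took 1.76% ± 0.269 at pH 7.4 and 0.868% ± 0.15 at pH 6.6 (SD, n = 5 each), so that it was lower at pH 6.6 with and without IL-2. The libraries were selected for polyadenylated RNA, and reads that align to several places were not counted. The part of these steps in the mitochondrial values was not tested. All 7 were tested, and 6 fell and 0 rose at pH 6.6 with IL-2, against 40.9% and 35.4% of all genes tested. Among those that fell were mt-Nd1 (log2 fold change -2.38 ± 0.14, SE) and mt-Cytb (-1.76 ± 0.12), while mt-Co1 had -0.06 ± 0.13 and an edgeR adjusted p of 0.705. Without IL-2 all 7 fell at pH 6.6, against 35.4% of all genes tested.

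Compared per kilobase of exon, the ATP synthase head led the members where they were most abundant. The exon length merges all annotated transcripts of a gene, so these rankings depend on the annotation and are approximate. At pH 7.4 with IL-2, Atp5b (346 CPM per kb on average), Atp5a1 (292) and Cox6b1 (233) were the highest. At pH 6.6 with IL-2, Uqcrh (234), Cox8a (197) and Cox4i1 (175) were, and at pH 7.4 without IL-2 Uqcrh (205), Cox4i1 (157) and Cox7a2l (149).

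**Figure D1:**
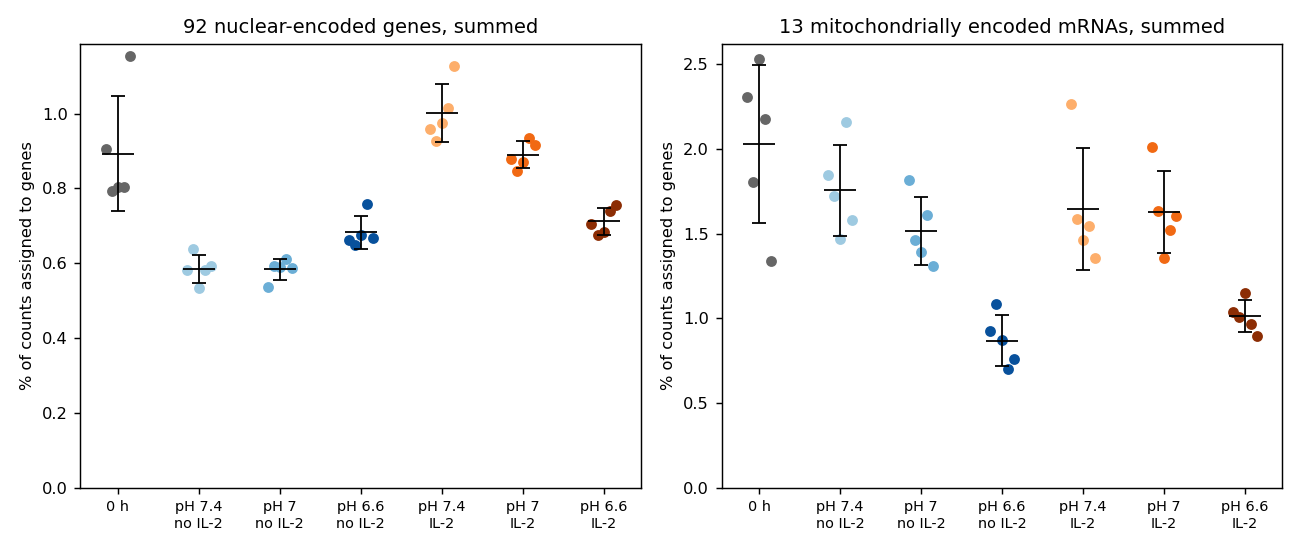
Share of the counts on genes (%, y axis) taken by the 92 nuclear-encoded members (left) and by the 13 mitochondrially encoded mRNAs (right) in each of the 7 groups (x axis), with a point for each library and the mean ± SD of 5 as bars. The members were at 0.927 to 1.13% in the pH 7.4 + IL-2 group and at 0.676 to 0.756% at pH 6.6 with IL-2, while the mitochondrial mRNAs, of which 6 had almost no counted reads and mt-Co1 was the most abundant, were low at pH 6.6 with and without IL-2.

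The first comparison asked how acidity changed the expression of these genes in CTLs that received IL-2. At pH 6.6, 64 of the 87 members tested fell and 6 rose relative to pH 7.4, and 17 did not pass the test. Over all 13819 genes tested, 40.9% fell and 35.4% rose, so that the members fell more often and rose less often than the genes at large. The median log2 fold change of the members was -0.56, against -0.07 over all genes tested. Log2 fold changes are given with their standard error (SE) from the edgeR quasi-likelihood fit, and a gene is said to rise or fall at a Benjamini-Hochberg adjusted p under 0.05 over all genes tested.

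In complex I, 38 of 44 genes fell and 1 rose, against 40.9% and 35.4% of all genes tested. The median log2 fold change of the complex I genes was -0.66. The genes named as largest here and in the comparisons that follow are those called whose mean log2 CPM reached 3. The largest fall was that of Ndufa12, an accessory subunit of the peripheral arm, which holds the electron path from NADH to ubiquinone. Ndufa12 was at 41.4, 43.3, 46.4, 41.5 and 51.6 CPM in the pH 7.4 + IL-2 libraries and at 13.4, 13, 14.1, 14.4 and 15.5 CPM in the pH 6.6 + IL-2 libraries. The groups did not overlap, and all pH 6.6 libraries lay close to the cells without IL-2, in which Ndufa12 was at 10.9, 12.3, 9.27, 14.3 and 11.4 CPM at pH 7.4 and 11.9, 11, 12, 11.5 and 10.0 CPM at pH 6.6. Its log2 fold change was -1.67 ± 0.12 (SE), with an edgeR adjusted p of 8.28e-14, and 5 of 5 pairs fell. The assembly factor Ndufaf4 (-1.58 ± 0.14) and the small accessory subunit Ndufc1 (-1.56 ± 0.16) fell next most.

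The core subunits of complex I, which carry the flavin and the iron-sulfur clusters, moved by smaller amounts. Of the 7 that were tested, 6 fell, with a median log2 fold change of -0.40. Ndufs8, which holds 2 of the clusters next to the ubiquinone site, had -0.86 ± 0.08, Ndufv1, the flavin subunit that takes electrons from NADH, -0.52 ± 0.10, and Ndufs1, the largest subunit, -0.41 ± 0.07. Ndufv2 (-0.40 ± 0.14) and Ndufs7 (-0.31 ± 0.12) also fell, although Ndufs7 lost its call when replicate 1, 2 or 5 was left out and Ndufv2 when replicate 1 was. Ndufs3, named after its value was seen as the core subunit that did not pass, had -0.12 ± 0.08 (edgeR adjusted p = 0.146). All 10 subunits of the NDUFB family, which sit in the distal membrane arm, fell. So did 7 of the 8 assembly factors, while 40.9% of all genes tested fell.

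Ndufa6, an accessory subunit of the LYR protein family bound to the acyl carrier protein Ndufab1, was the complex I gene that rose. It was at 52.1, 49.2, 51.7, 56.4 and 66.3 CPM in the pH 7.4 + IL-2 libraries and at 107, 103, 103, 103 and 109 CPM in the pH 6.6 + IL-2 libraries. Each acidic library was above each neutral one, and the log2 fold change was 0.93 ± 0.12 (SE), with an edgeR adjusted p of 1.89e-08, with 5 of 5 pairs rising. Without IL-2, Ndufa6 was at 102, 109, 83.1, 96.3 and 89.1 CPM at pH 7.4 and 122, 107, 113, 134 and 104 CPM at pH 6.6, so that the low group among the 4 was the one at pH 7.4 with IL-2.

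Complex II oxidises succinate and belongs to the respiratory chain and to the citric acid cycle. Sdhb, its iron-sulfur subunit, was at 148, 162, 172, 176 and 192 CPM in the pH 7.4 + IL-2 libraries and at 76.2, 72.9, 74.1, 79.5 and 85.7 CPM in the pH 6.6 + IL-2 libraries. The groups were well apart, and the log2 fold change was -1.13 ± 0.08 (SE), with an edgeR adjusted p of 4.07e-14. Of the membrane anchors, Sdhc fell (-0.66 ± 0.07), while Sdhd had -0.11 ± 0.08 and an edgeR adjusted p of 0.177. Sdha, the flavin subunit that the symbol rule leaves out, fell by less than Sdhb and Sdhc, with -0.27 ± 0.05 (edgeR adjusted p = 2.49e-05).

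In complex III, 6 of 8 genes fell and 1 rose, against 40.9% and 35.4% of all genes tested. Uqcr11, its smallest subunit, was at 39.5, 39.2, 39.4, 50.3 and 55.5 CPM in the pH 7.4 + IL-2 libraries and at 13.8, 13.6, 10.4, 18 and 16.3 CPM in the pH 6.6 + IL-2 libraries. Again no library of one group reached the other, and the log2 fold change was -1.63 ± 0.12 (SE), with an edgeR adjusted p of 1.38e-13. The small subunits Uqcrq (-1.39 ± 0.10) and Uqcr10 (-0.98 ± 0.10) followed. Uqcrfs1, the Rieske iron-sulfur protein, fell by less (-0.27 ± 0.08) and lost its call without replicate 1, and the core protein Uqcrc2, which overlaps a gene on the other strand over 19.8% of its exon length, had -0.04 ± 0.06 and an edgeR adjusted p of 0.558. Cyc1, the cytochrome c1 subunit outside the symbol rule, fell (-0.96 ± 0.08).

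Uqcrh, the hinge protein between cytochrome c1 and cytochrome c, rose. It was at 182, 166, 184, 185 and 233 CPM in the pH 7.4 + IL-2 libraries and at 262, 288, 298, 283 and 314 CPM in the pH 6.6 + IL-2 libraries. The groups did not overlap, although the highest library at pH 7.4 stood well above the other 4 of its group. The log2 fold change was 0.61 ± 0.13 (SE), with an edgeR adjusted p of 9.24e-05.

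In complex IV, 9 of the 15 genes tested fell and 3 rose, against 40.9% and 35.4% of all genes tested. Ndufa4, a subunit at the interface of the complex, was at 60.1, 62.3, 72.3, 56.6 and 73.8 CPM in the pH 7.4 + IL-2 libraries and at 20.4, 25.9, 32.9, 25.8 and 26.6 CPM in the pH 6.6 + IL-2 libraries. Each library at pH 7.4 was above each library at pH 6.6, and the log2 fold change was -1.30 ± 0.12 (SE), with an edgeR adjusted p of 2.84e-11. Cox5b, which binds zinc on the matrix side, had -1.15 ± 0.13, and Cox7b -1.07 ± 0.11.

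Cox7a2l, a relative of Cox7a2 that ties complex III to complex IV in supercomplexes, rose. It was at 118, 102, 106, 116 and 130.3 CPM in the pH 7.4 + IL-2 libraries and at 223, 221, 219.5, 217 and 221 CPM in the pH 6.6 + IL-2 libraries. The groups were far apart and the acidic libraries lay within a narrow range. The log2 fold change was 0.95 ± 0.08 (SE), with an edgeR adjusted p of 2.48e-12, with 5 of 5 pairs rising. Without IL-2, Cox7a2l was at 229, 231, 212, 209 and 222 CPM at pH 7.4, a range that includes all 5 libraries at pH 6.6 with IL-2.

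In complex V, 9 of 17 genes fell and 1 rose, against 40.9% and 35.4% of all genes tested. Atp5g1, one of 3 genes that encode the same mature c subunit of the proton-driven ring, showed the largest fall of these members. It was at 22.1, 19.7, 19.1, 23.7 and 25.2 CPM in the pH 7.4 + IL-2 libraries and at 6.41, 5.59, 4.66, 6.91 and 7.12 CPM in the pH 6.6 + IL-2 libraries. The groups did not overlap, and the log2 fold change was -1.84 ± 0.10 (SE), with an edgeR adjusted p of 4.2e-17. Atp5g3 (-1.33 ± 0.07) and the membrane subunit Atp5k (-1.33 ± 0.19) came next.

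The catalytic beta subunit Atp5b and the alpha subunit Atp5a1 of the F1 head fell by 1.02 and 0.96 on the log2 scale. The other F1 genes did not pass the test, with log2 fold changes of -0.13 for the gamma subunit Atp5c1, 0.05 for the delta subunit Atp5d and -0.26 for the epsilon subunit Atp5e. Atp5s, the coupling factor, was at 6.81, 6.97, 6.2, 7.57 and 8.17 CPM in the pH 7.4 + IL-2 libraries and at 11.4, 10.9, 14.3, 12.5 and 12.7 CPM in the pH 6.6 + IL-2 libraries. The groups did not overlap, and the log2 fold change was 0.80 ± 0.12 (SE), with an edgeR adjusted p of 6.08e-07.

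**Figure D2:**
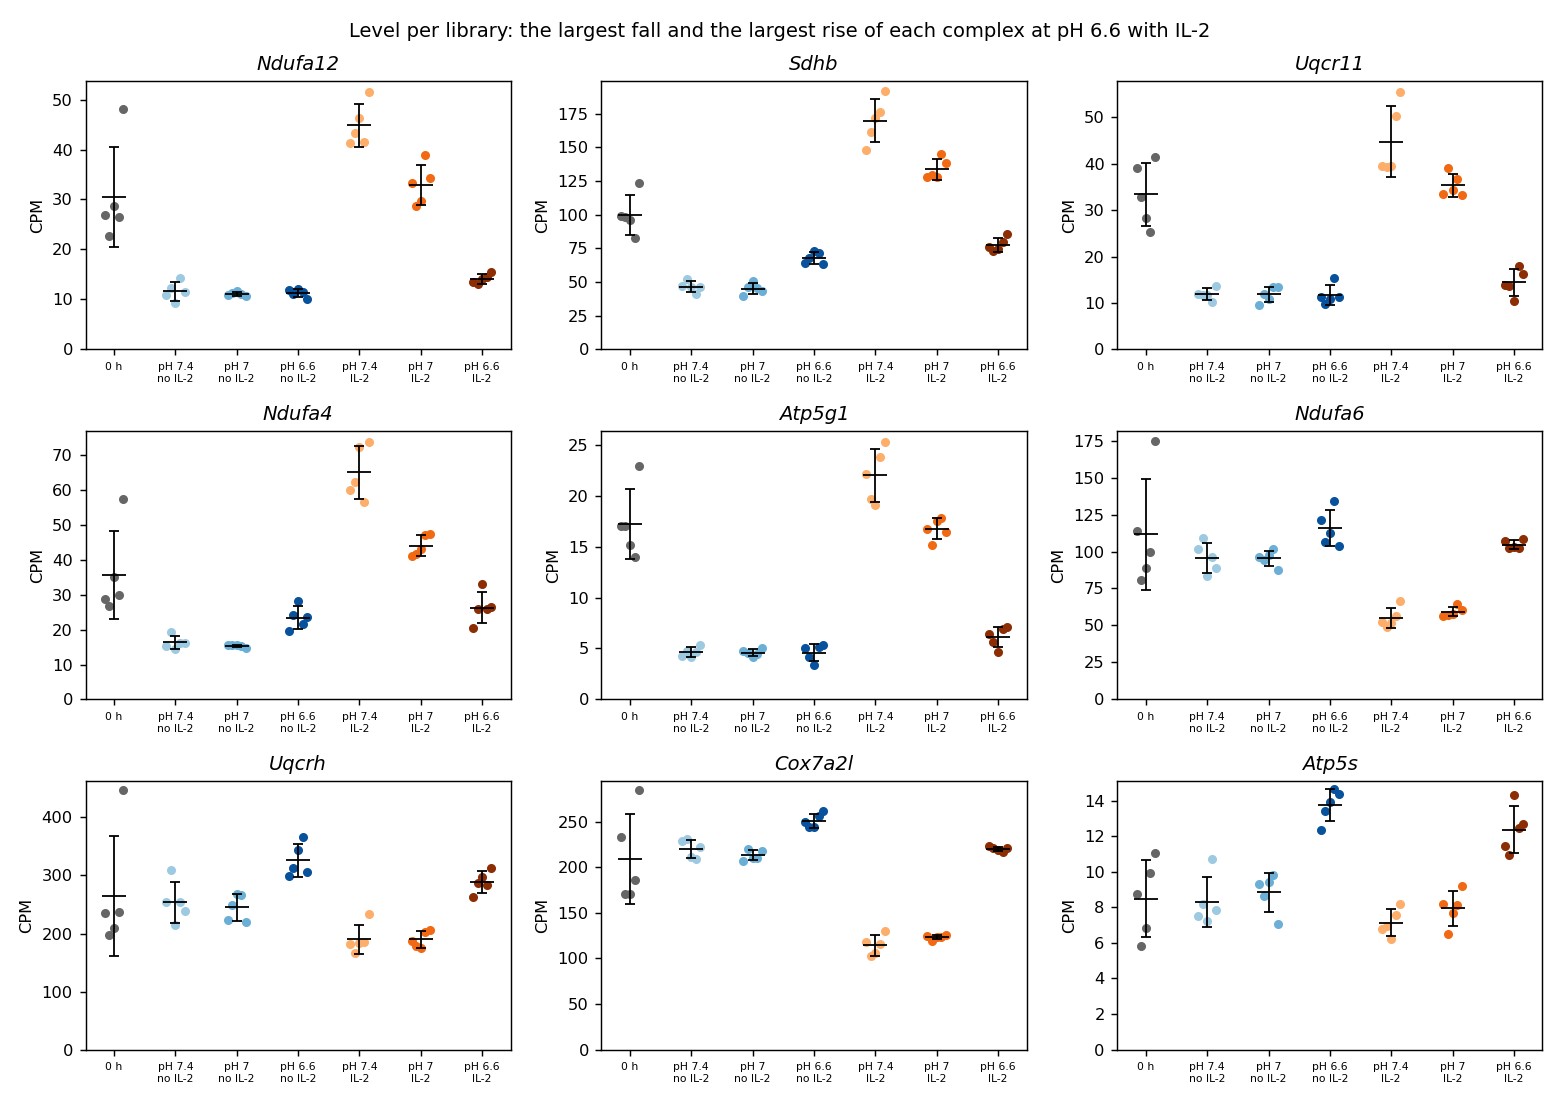
Level in CPM (y axis from 0) of the largest fall in each of the 5 complexes (Ndufa12, Sdhb, Uqcr11, Ndufa4 and Atp5g1) and the largest rise in the 4 that had one (Ndufa6, Uqcrh, Cox7a2l and Atp5s) at pH 6.6 with IL-2, in the 7 groups (x axis), with a point per library and the mean ± SD of 5. The falling genes are high in cells with IL-2 at pH 7.4 and pH 7, and Ndufa6, Uqcrh and Cox7a2l are low there.

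At pH 7, the milder acidity, the members moved less. Relative to pH 7.4 with IL-2, 16 of 87 fell and 0 rose, against 9.83% and 9.15% of all genes tested, and the median log2 fold change of the members was -0.20 against -0.01 for all genes. At an unadjusted p under 0.05, 39 members were lower and 0 higher, and DESeq2 called 22 lower and 0 higher. The largest falls were those of Ndufa4 (-0.56 ± 0.12), Ndufa12 (-0.45 ± 0.12) and Atp5g1 (-0.38 ± 0.10). Ndufa4 was at 41, 41.6, 43, 47 and 47.3 CPM at pH 7 with IL-2, between its values at pH 6.6 and at pH 7.4 and overlapping neither. The number that fell was 8 without the replicate block, 41 in a fit of these groups alone, and 9, 6 and 10 without replicates 2, 3 and 4, and Ndufa12 lost its call without replicate 3.

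The next comparison asked how acidity acted in CTLs that received no IL-2. Here 46 of the 87 members rose at pH 6.6 and 5 fell, against 31.6% and 35.4% of all genes tested, and the median log2 fold change was 0.27 against -0.03. The risers included all 3 genes of complex II, the 3 core genes of complex III and the 5 genes of the F1 head. Among members whose mean log2 CPM reached 3, the largest rises were those of the F1 delta subunit Atp5d (0.89 ± 0.11), of Cox7a2, the common isoform of a small complex IV subunit (0.74 ± 0.14), and of Atp5s (0.73 ± 0.12). The count of risers depended on single replicates. With each replicate left out in turn, it ranged from 33 to 52, and the median log2 fold change from 0.201 to 0.285. Replicate 4 at pH 6.6 without IL-2 had the highest summed share of the members in its group (0.759%).

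The 5 that fell without IL-2 were all complex I genes, 3 of them assembly factors. Ndufaf7, a mitochondrial methyltransferase, had -0.55 ± 0.10, Ndufaf5 -0.38 ± 0.11 and Ndufc2 -0.22 ± 0.09. The other two, Ndufaf8 and Ndufb8, were named after their values were seen and had -0.49 ± 0.14 and -0.19 ± 0.08. The number that fell was 3 without the replicate block, 3 by DESeq2, and 3 without replicate 2 or 3. Ndufc2 was not called in these fits or without replicate 4. At pH 7 without IL-2, 0 of 87 members rose and 0 fell by edgeR, with 0 in either direction at an unadjusted p under 0.05 and 0 by DESeq2, against 1.36% and 0.318% of all genes tested.

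The effect of pH 6.6 with IL-2 differed from that without IL-2 for most members. In the interaction contrast, which subtracts the log2 fold change without IL-2 from that with IL-2, 77 members were negative and 2 positive, against 32.8% and 34.3% of all genes tested. The median was -0.84 over the members and 0.04 over all genes. The most negative were Atp5g1 (-1.82 ± 0.15), Ndufa4 (-1.81 ± 0.18) and Atp5b (-1.75 ± 0.08). Cox7a2l (0.77 ± 0.11) and Ndufa6 (0.66 ± 0.17) were the positive ones.

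**Figure D3:**
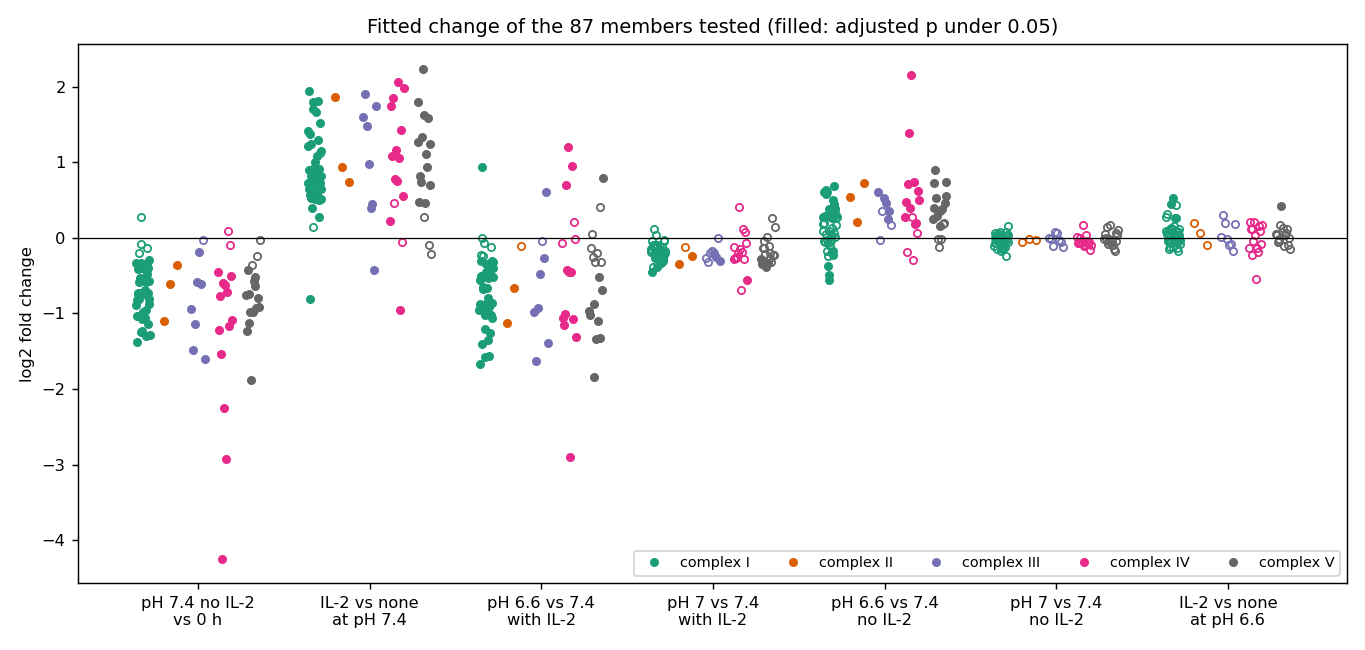
Fitted log2 fold change (y axis) of the 87 members tested in 7 comparisons (x axis), coloured by complex, with filled points for an adjusted p under 0.05 and open points otherwise. Most members fell without IL-2 relative to 0 h (77), rose with IL-2 at pH 7.4 (78) and fell at pH 6.6 with IL-2 (64), while at pH 7 without IL-2 no member was called.

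The comparison of CTLs with and without IL-2 asked how these genes responded to the cytokine at each pH. At pH 7.4, 78 of 87 members were higher with IL-2 and 3 lower, against 39.3% and 41.1% of all genes tested, and the median log2 fold change was 0.82 against -0.04. By complex, the medians were 0.80 for complex I, 0.93 for complex II, 1.23 for complex III, 1.06 for complex IV and 0.93 for complex V. The largest rises were those of Atp5g1 (2.24 ± 0.10), Ndufa4 (1.98 ± 0.13) and Ndufa12 (1.95 ± 0.13). Atp5g1 stood at 4.26, 4.79, 4.19, 4.63 and 5.39 CPM without IL-2 at pH 7.4, below each library with IL-2.

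The 3 members that were lower with IL-2 at pH 7.4 were Cox7a2l (-0.95 ± 0.08), Ndufa6 (-0.81 ± 0.12) and Uqcrh (-0.43 ± 0.13). All 3 also rose at pH 6.6 with IL-2, in a comparison that shares the libraries at pH 7.4 with IL-2. The 6 that did not pass were Ndufaf3, Cox7c, Cox6a2, Atp5g2, Atp5l and Atp5s, named after their values were seen, with log2 fold changes from -0.21 (Atp5s) to 0.46 (Cox6a2).

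At pH 6.6, 4 members were higher with IL-2 and 0 lower by edgeR, against 13.2% and 10.6% of all genes tested, and the median log2 fold change was 0.03 against -0.04. At an unadjusted p under 0.05, 10 were higher and 1 lower, and DESeq2 called 6 higher and 0 lower. The 4 were the assembly factor Ndufaf8 (0.53 ± 0.15, named after its value was seen), Ndufaf4 (0.45 ± 0.14), Atp5g1 (0.42 ± 0.11) and Ndufc2 (0.26 ± 0.09). Ndufaf4 lost its call without replicate 3 or 4 and Ndufc2 without the block, with a looser count filter or without replicate 1, 3 or 4, and 2 members were called higher without replicate 3 and 2 without replicate 4. A fit of the libraries of these groups alone changed the count of higher members to 18 and of lower members to 3.

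**Figure D4:**
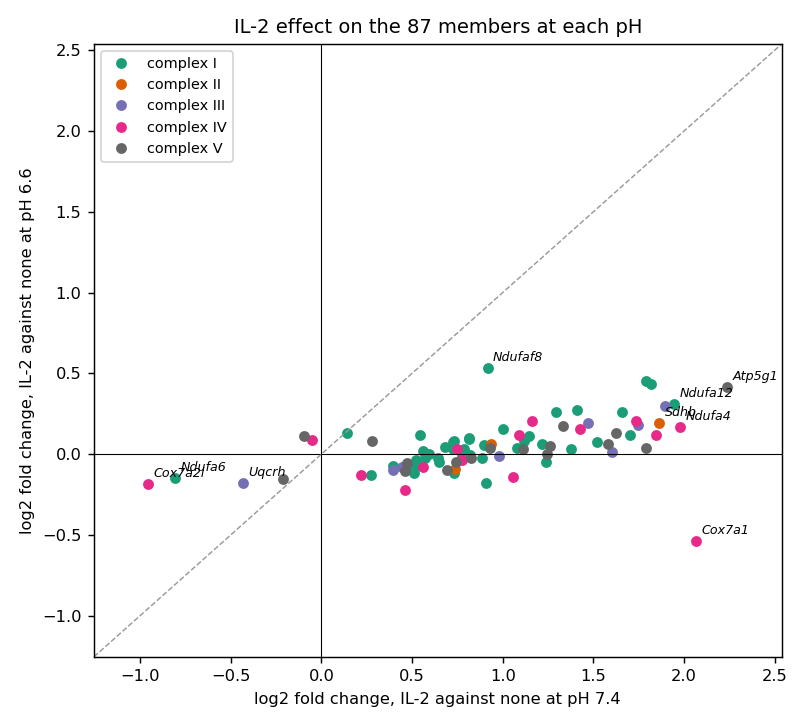
Fitted log2 fold change of each of the 87 members tested for IL-2 against no IL-2, at pH 7.4 (x axis) and at pH 6.6 (y axis), coloured by complex, with the line of equal change dashed. Values at pH 7.4 reach 2.24 for Atp5g1 and -0.95 for Cox7a2l, and those at pH 6.6 lie between -0.54 (Cox7a1) and 0.53 (Ndufaf8).

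The cells at 0 h, taken from expansion in IL-2, show where the groups started from. After 24 h at pH 7.4 without IL-2, 77 of 87 members had fallen and 0 had risen, by edgeR and by DESeq2 alike and with 0 higher at an unadjusted p under 0.05, against 38.3% and 36.9% of all genes tested. The median log2 fold change was -0.73 against -0.01 over all genes. Without replicate 5, the median was -0.50, with 74 lower and 3 higher. The largest falls were those of Atp5g1 (-1.88 ± 0.10), Uqcrq (-1.61 ± 0.10) and Cox6a1 (-1.53 ± 0.10). Without replicate 5 these were -1.82, -1.55 and -1.45.

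After 24 h at pH 7.4 with IL-2, 43 members were higher than at 0 h and 10 lower, against 29% and 30.9% of all genes tested. The median log2 fold change was 0.23 against -0.03 over all genes. Without replicate 5, 55 were higher and 9 lower, with a median of 0.32. Ndufaf2, an assembly factor whose sequence is 35.9% unique, had 1.05 ± 0.15, Ndufa4 0.89 ± 0.12 and Sdhb 0.77 ± 0.08. Ndufa6 (-1.003 ± 0.12), Cox7a2l (-0.86 ± 0.08) and Ndufv3 (-0.78 ± 0.12), a subunit of the NADH-oxidising arm, fell most. Without replicate 5, the log2 fold changes were 1.20 for Ndufaf2, 1.07 for Ndufa4, 0.81 for Sdhb, -0.85 for Ndufa6, -0.77 for Cox7a2l and -0.78 for Ndufv3. Ndufa6 was at 114, 80.5, 88.6, 99.4 and 175 CPM at 0 h, above each library at pH 7.4 with IL-2.

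Several complex IV subunits and the c ring are encoded by alternative isoforms, which were compared per kilobase of exon. The exon length merges all annotated transcripts of a gene, with 4912 bases for Atp5g1 and 2181 for Atp5g3. It can exceed the length of the mRNA in these cells, so levels compare only roughly between genes. In the c ring, Atp5g3 dominated, with 142 CPM per kb on average at pH 7.4 with IL-2 against 4.48 for Atp5g1 and 1.69 for Atp5g2, whose sequence is 61.7% unique. Atp5g3 was at 308, 292, 299.8, 309.9 and 338 CPM in the pH 7.4 + IL-2 libraries and at 127, 111, 119.5, 127 and 129 CPM in the pH 6.6 + IL-2 libraries, without overlap. Atp5g2 had a log2 fold change of -0.32 ± 0.20 and an edgeR adjusted p of 0.134.

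The widely expressed isoforms of complex IV did not move alike. Cox4i1, the common isoform of the largest nuclear-encoded subunit, was at 184 CPM per kb in the pH 7.4 + IL-2 group and did not pass the test at pH 6.6 (-0.07 ± 0.09, edgeR adjusted p = 0.505), and neither did Cox8a (-0.02 ± 0.12, edgeR adjusted p = 0.89). Cox6a1 fell from 157 ± 18.2 to 77.7 ± 7.33 CPM (SD, n = 5 each), with a log2 fold change of -1.01 ± 0.10 (SE), with an edgeR adjusted p of 1.42e-10. Cox7a2 (-0.46 ± 0.14) and Cox6b1 (-0.42 ± 0.12) fell by less, and Cox6b1 lost its call without replicate 1.

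The isoforms known from other tissues were present at low levels. All 3 that were tested fell from 0 h to 24 h at pH 7.4, with and without IL-2, against 30.9% and 38.3% of all genes tested. At pH 6.6 with IL-2, Cox6a2 and Cox6b2 rose and Cox7a1 fell. Cox6a2, the heart and skeletal muscle isoform, was at 18.6, 8.53, 8.97, 6.39 and 11 CPM at 0 h and at 0.568, 0.729, 0.533, 0.786 and 1.13 CPM after 24 h at pH 7.4 with IL-2. The groups did not overlap, and the log2 fold changes from 0 h were -3.78 ± 0.23 with IL-2 and -4.24 ± 0.24 without it (-3.93 and -4.20 without replicate 5). At pH 6.6 with IL-2, Cox6a2 was at 1.21, 1.44, 1.72, 0.74 and 0.999 CPM, and its rise (0.70 ± 0.27, edgeR adjusted p = 0.0175) was lost without replicate 2 or 3 (edgeR adjusted p = 0.0521 and 0.169).

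Cox7a1, the other muscle isoform, was at 0.689, 1.11, 1.23, 1.24 and 2.12 CPM in the pH 7.4 + IL-2 libraries and at 0.116, 0.24, 0.0419, 0.329 and 0.0833 CPM in the pH 6.6 + IL-2 libraries, which is 17 to 47 reads against 1 to 8 reads per library. All neutral libraries were above all acidic ones, and the log2 fold change was -2.90 ± 0.38 (SE), with an edgeR adjusted p of 3.66e-08. Cox6b2, the testis isoform, was at 1.05, 1.01, 1.15, 2.73 and 2.44 CPM in the pH 7.4 + IL-2 libraries and at 1.91, 3.44, 5.03, 3.99 and 4.37 CPM in the pH 6.6 + IL-2 libraries. These groups overlapped, and the log2 fold change was 1.20 ± 0.21 (SE), with an edgeR adjusted p of 7.92e-06. Without IL-2, Cox6b2 was at 0.423 to 1.24 CPM at pH 7.4 and at 2.19 to 4.09 CPM at pH 6.6, without overlap, and rose (2.15 ± 0.24).

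**Figure D5:**
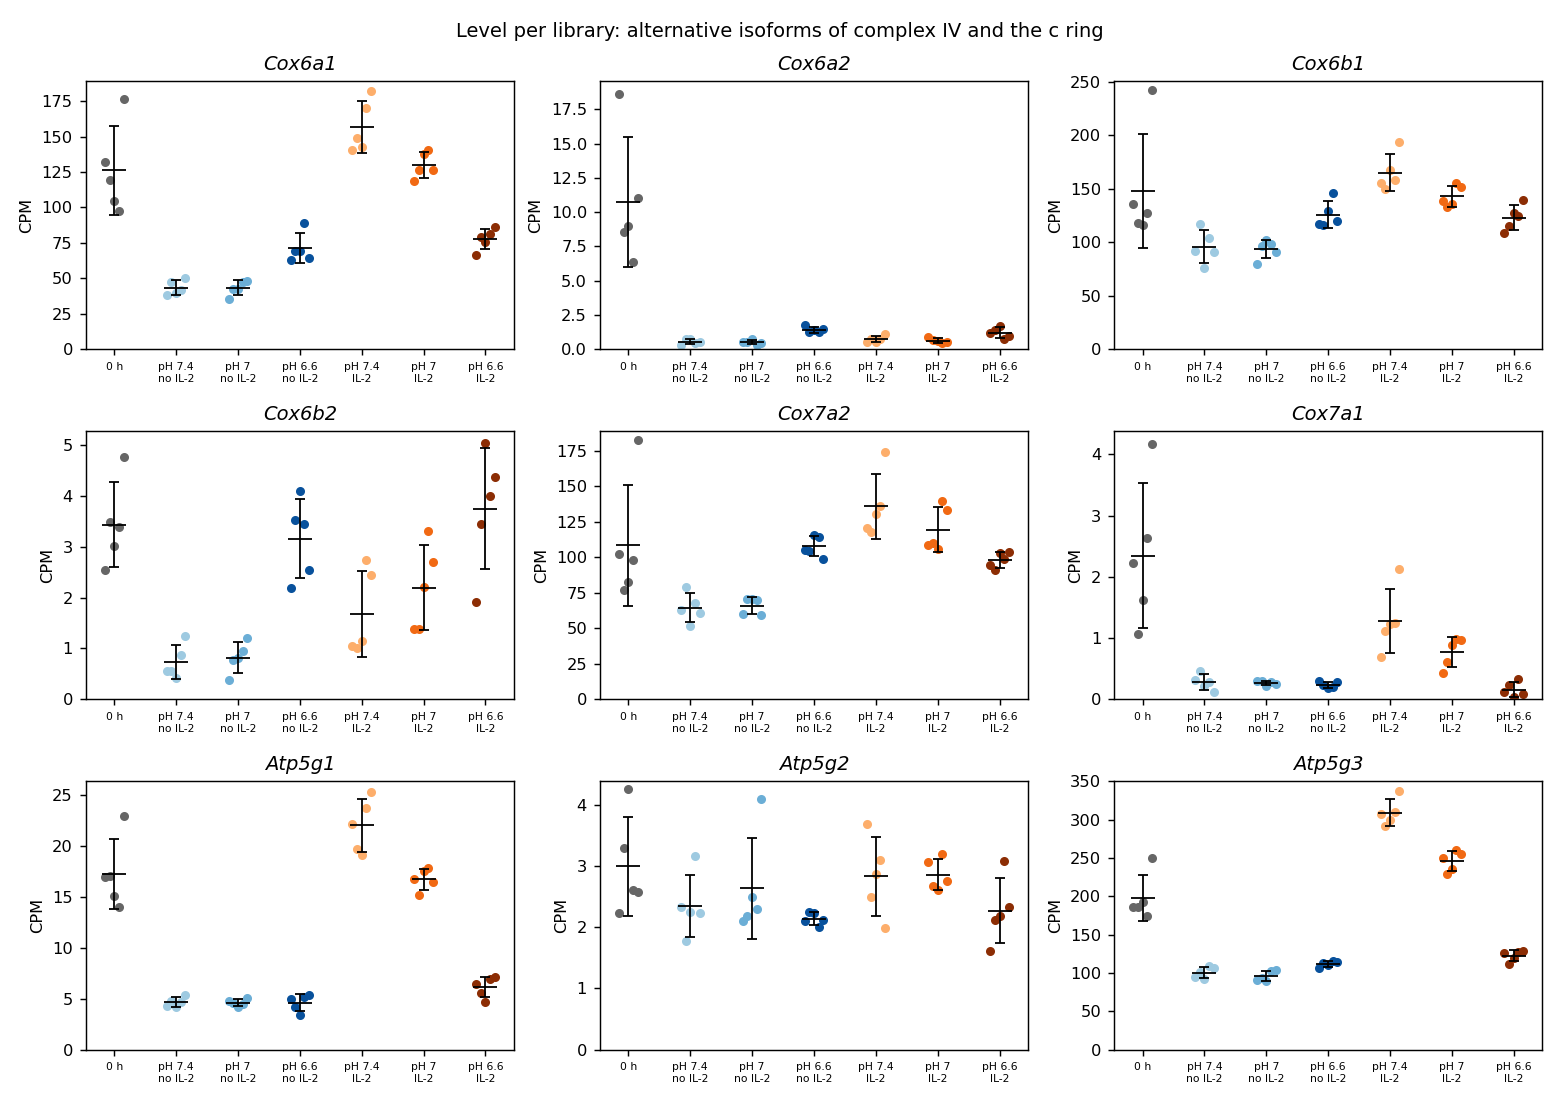
Level in CPM (y axis from 0, scaled to each gene) of 6 complex IV isoforms and the 3 c-ring genes in the 7 groups (x axis), with a point per library and the mean ± SD of 5. Cox6a2 is at 6.39 to 18.7 CPM at 0 h and under 2 CPM in all other groups, and Atp5g1 and Atp5g3 have their highest means at pH 7.4 with IL-2 while the Atp5g2 groups overlap.

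Among the genes that assemble the complexes but lie outside the symbol rule, 39 were tested. At pH 6.6 with IL-2, 30 of them fell and 5 rose, against 40.9% and 35.4% of all genes tested, and their median log2 fold change was -0.60. The following were named after their values were seen. The complex IV factor Coa7 (-2.45 ± 0.14), the complex III factor Uqcc2 (-1.95 ± 0.12) and Lrpprc, which stabilises mitochondrial mRNAs (-1.63 ± 0.10), were among those that fell, and Surf1, a complex IV factor, rose (1.28 ± 0.09). Without IL-2 at pH 6.6, 6 of these 39 rose and 17 fell, against 31.6% and 35.4% of all genes tested, with a median of -0.16. With IL-2 at pH 7.4, 24 rose and 4 fell, against 39.3% and 41.1% of all genes tested.

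Of 12 regulators of mitochondrial biogenesis tested, 7 fell and 2 rose at pH 6.6 with IL-2, against 40.9% and 35.4% of all genes tested. Pprc1, a coactivator of the PGC-1 family, had -1.93 ± 0.16, Myc -1.55 ± 0.11, and Tfam, which packages and transcribes mitochondrial DNA, -0.84 ± 0.09. Nrf1 had -0.20 ± 0.07, Gabpa -0.09 ± 0.08 (edgeR adjusted p = 0.319) and Yy1, which rose, 0.38 ± 0.11. With IL-2 at pH 7.4, 9 of the 12 rose and 0 fell, against 39.3% and 41.1% of all genes tested, led by Myc (3.31 ± 0.12) and Pprc1 (3.29 ± 0.17). Without IL-2, 7 of the 12 rose and 1 fell at pH 6.6, against 31.6% and 35.4% of all genes tested. The largest rise was that of Gabpb1, a subunit of GABP (0.89 ± 0.07), followed by Myc (0.69 ± 0.12) and Nrf1 (0.57 ± 0.07), and Tfb1m, a mitochondrial rRNA methyltransferase, fell (-0.39 ± 0.11). The part of these regulators in the members' levels was not tested.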

How the data were processed

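Polyadenylated RNA of 35 OT-I CTL cultures was sequenced from stranded libraries (7 groups of 5). The deposited files hold raw counts of reads per gene for each library, which the authors made with HTSeq, and the submitters' processing notes also name cutadapt 1.8, STAR 2.5.2b, HTSeq 0.6.1 and the GRCm38 genome. The strand setting of the counting is not given in the sources used here, so reads of the 27 members that overlap a gene on the other strand may include reads of that gene. The overlap covers at least 10% of the exon length in 10 members (Ndufb6, Atp5o, Ndufa13, Uqcrc2, Ndufb11, Cox5a, Atp5j, Ndufb5, Ndufa2 and Cox6a2). Reads aligned to several places (median 37.1% of a library, range 32.8 to 48.3%), outside genes (median 7.42%) or to several genes (median 0.922%) were left out of library sizes and tests. Reads outside genes were 3.9 to 5.2% at pH 7.4 with IL-2 and 7.3 to 8.8% at pH 6.6 with IL-2, without overlap. Replicate 5 at 0 h had the highest share at several places (48.3%) and the lowest outside genes (2.58%) of all libraries. The part of these differences in the results was not tested.

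Counts were tested with edgeR 4.0.16 (R 4.3.3) by the quasi-likelihood test, with TMM normalisation, filterByExpr at a minimum count of 10, all 35 libraries in one fit and the replicate number as a block, following the paired tests of the study. P-values were adjusted by Benjamini-Hochberg over 13819 genes, and the threshold was 0.05. As a check of the pairing, deviations from the group means of same-numbered libraries correlated above 0.1 in 95 of 105 pairs (median 0.273, against -0.075 for other pairs), and in 5 of 5 pairs for each comparison except pH 7.4 without IL-2 against 0 h, with 3 of 5. No 2 libraries of a group agreed within sampling noise (lowest chi-square per degree of freedom 6.65 over 70 pairs). CPM is the count per 1000000 counts of the TMM-scaled library, and shares of a library are of its unscaled counts on genes. Values per kb divide CPM by the exon length of a gene, merged over all its annotated transcripts. The fit was also run on simulated data in which few genes changed, in a single group, and replicates had no effect. That setting is unlike these data, in which most genes changed, and cannot test the block or the normalisation. DESeq2 1.42.0, RLE size factors, looser and stricter filters, no block, fits of the compared groups alone, omission of each replicate, members with at least 95% of 50-base windows unique, and subunits without assembly factors were alternatives.

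The members and gene lists were chosen with earlier results of these data known. Genes were named by rule: at pH 6.6 with IL-2 the 3 largest rises and falls of each complex among called members whose mean log2 CPM reached 3, in each other comparison the 3 largest over all members, the paralog sets, and the subunits with redox centres or catalytic sites, of which 1 is not reported here. Promoter windows came from RefSeq (GRCm38.p6).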

Additional observations from a re-analysis of the deposited data

Results flagged for a closer look

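Over 112 groups of 5 libraries examined, 14 held a library whose gap to the nearest other exceeded Dixon's critical value. Chance gives about 1 in 20 groups when groups are independent. These are not, since the sums contain the single genes and all come from the same 35 libraries. A single odd library can be counted several times, so the 14 cannot be judged against that rate. At 0 h, replicate 5 was high for complex II (0.0367% of the counts), complex V (0.4505%), Ndufa12 (48.1 CPM), Uqcrh (448.0 CPM) and Ndufa4 (57.4 CPM). At pH 6.6 without IL-2, replicate 4 was high for the summed members (0.759%), complex IV (0.145%), complex V (0.285%) and Uqcr11 (15.4 CPM). The remaining libraries that stood apart were replicate 1 at pH 7.4 with IL-2 for the mitochondrially encoded mRNAs (2.27%), replicate 5 of the same group for Uqcrh (233.0 CPM), replicate 4 of the pH 7.4 group without IL-2 for Atp5s (10.7 CPM), and, on the low side, replicate 2 at pH 7 with IL-2 for Cox7a2l (119.3 CPM) and replicate 5 at pH 7 without IL-2 for Ndufa4 (14.8 CPM).

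The edgeR interaction term of pH 6.6 and IL-2 passed the threshold with a negative sign for 77 members and with a positive sign for 2. Of all genes tested, 32.8% and 34.3% did so. Among the genes given in every library, the differences on the log2 scale were -1.64 for Ndufa12, -1.67 for Sdhb, -1.60 for Uqcr11, -1.81 for Ndufa4 and -1.82 for Atp5g1, and 0.66 for Ndufa6 and 0.77 for Cox7a2l. The differences of Uqcrh (0.25) and Atp5s (0.06) did not pass the threshold.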

How the results depend on the processing

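In the comparisons for which genes were named, no named gene's value reversed under any alternative. Of these values, 723 kept their direction and their side of the threshold and 22 lost their call. Other genes and comparisons were not labelled in this way. Without replicate 5, Ndufaf2 (log2 fold change 0.54), Uqcrh (0.23) and Cox7a2l (0.22) rose at pH 7.4 without IL-2 relative to 0 h, where the main fit called 0 members higher. Restricting the members to the 54 tested with unique sequence lowers counts by construction, to 41 lower in pH 6.6 + IL-2, 49 higher with IL-2 at pH 7.4, 48 negative and 1 positive for the interaction, 27 higher with IL-2 than at 0 h and 50 lower without IL-2 than at 0 h. Leaving out the assembly factors likewise gave 2 lower at pH 6.6 without IL-2 and 2 higher with IL-2 at pH 6.6. Without the replicate block, 8 members were lower in pH 7 + IL-2 and 3 at pH 6.6 without IL-2, and no other count moved by over 1.5 times. DESeq2 and RLE size factors gave 3 for the latter, and the looser filter 9 for the former.

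Fits of the compared groups alone called 41 members lower and 1 higher at pH 7 with IL-2, and 18 higher and 3 lower with IL-2 at pH 6.6. The cause was not tested. With single replicates left out, the counts ranged from 6 to 15 lower at pH 7 with IL-2, from 3 to 5 lower at pH 6.6 without IL-2, from 2 to 6 higher with IL-2 at pH 6.6 and from 0 to 3 higher without IL-2 than at 0 h, with 3 only without replicate 5. At these depths Cox7a1, Cox6a2 and Cox6b2 rest on few reads.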
